A study of Mus musculus with 12 samples.

Results

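The genes described here encode the digestive enzymes of the lysosome, their activators, carrier and precursor proteins, and proteins of the lysosomal membrane. They are 45 genes chosen by name from a table of 55806 genes: 10 proteases, 12 glycosidases, 5 sulfatases, 4 lipid hydrolases, 4 activator, carrier or growth factor precursor genes, 9 membrane proteins and the transcription factor Tfeb. All 45 had a row in the table, and all 45 were among the 12102 genes with at least 1 FPKM (fragment counts divided by gene length and by a library total) in at least 3 libraries. FPKM is corrected for gene length, so levels can be set side by side between genes. RNA was sequenced from osteoclasts, the bone-resorbing cells, grown from mouse bone marrow monocytes with the cytokines M-CSF and RANKL and collected on day 4. The mice were 8 to 12 weeks old. The groups were female Per2 knockout, female control, male Per2 knockout and male control, with 3 libraries each, 1 from each of 3 labelled batches. Per2 encodes a repressor of the circadian clock, and library names write the knockout as cKO. The labels do not give the deleted exons, the cells of deletion, the control allele or whether a library pools animals. The title of the series has PER1 where its sample labels have Per2. Where the labels call libraries biological replicates they do not say whether these are separate animals, so p-values measure the spread between libraries.

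Lysosomes break down proteins, glycans, sulfated glycans and lipids that arrive by endocytosis, phagocytosis or autophagy. Most of their soluble enzymes are made as precursors and carried from the Golgi by mannose-6-phosphate receptors, and the enzymes work in a compartment kept acidic by a proton pump. Osteoclasts send lysosome-related vesicles to the bone surface, where acid and cathepsin K dissolve the matrix, and macrophages use the same enzymes to digest what they engulf. TFEB and its relatives TFE3, MITF and TFEC bind an E-box with the core CACGTG that lies near the start of many lysosomal genes.

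Reads assigned to genes numbered 13888150 to 17762190 per library, apart from male knockout replicate 2 with 41145397. Among the 45 genes the fewest reads in a library were 332, for Sgsh, and the most were 287313, for Psap. Per2 itself was low in these cells. It had 0.258, 0.204 and 0.589 FPKM in female knockouts, against 0.331, 0.530 and 0.368 FPKM in female controls (ratio 0.86, exact two-sided permutation p = 0.600). In male knockouts Per2 had 0.466, 0.390 and 0.230 FPKM, against 0.579, 0.721 and 0.701 FPKM in male controls (ratio 0.54, exact permutation p = 0.1, the smallest that 3 against 3 libraries can give). The male groups did not overlap, whereas the library labelled female knockout replicate 3 lay above every female control, so its Per2 level goes against its label. Female knockout is used below as the label gives it, and the female comparisons were repeated without that library. Reads from the undeleted part of the gene would still count, and the deleted part is not stated.

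The 45 genes differed in level by almost 3 orders of magnitude on the FPKM scale. Ctss, which encodes cathepsin S, had the highest mean over the 12 libraries, 2371 FPKM. It was followed by Psap (2336 FPKM), the precursor of the saposins that present sphingolipids to their hydrolases, and by the proteases Ctsd (991 FPKM), Ctsz (913 FPKM) and Ctsb (900 FPKM). The means of Ctss and Psap, and those of Ctsz and Ctsb, lay closer together than the spread between libraries. The lowest were Galc, the galactosylceramidase lost in Krabbe disease, with 2.76 FPKM, then Sgsh with 5.52 FPKM, Tfeb with 6.71 FPKM and the calcium channel gene Mcoln1 with 6.94 FPKM. The 5 highest genes made up 62.0 to 62.7% of the summed FPKM of the 45 in female knockouts, 59.0 to 59.5% in female controls, 64.8 to 65.9% in male knockouts and 64.4 to 66.1% in male controls. Ctsk, the collagen-degrading cathepsin of osteoclasts and not one of the 45, was higher still, at 5016 ± 678 FPKM in female knockouts and 4373 ± 172 FPKM in female controls (SD, n = 3 each).

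Summed over the 45 genes, lysosomal transcripts stood at 10436 to 11057 FPKM in the libraries labelled female knockout and at 6581 to 6927 FPKM in female controls. In males the sums were 14218 to 15312 FPKM in knockouts and 14287 to 15814 FPKM in controls. Female controls therefore held the lowest sums, female knockouts lay between them and the males without overlap, and the male groups overlapped. As a share of all FPKM in the table the 45 genes took 3.06 to 3.27% in female knockouts, 2.18 to 2.27% in female controls, 3.91 to 4.19% in male knockouts and 3.93 to 4.19% in male controls. In bulk RNA fewer cells of a type and less RNA per cell cannot be told apart, here or in any value below.

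**Figure D1:**
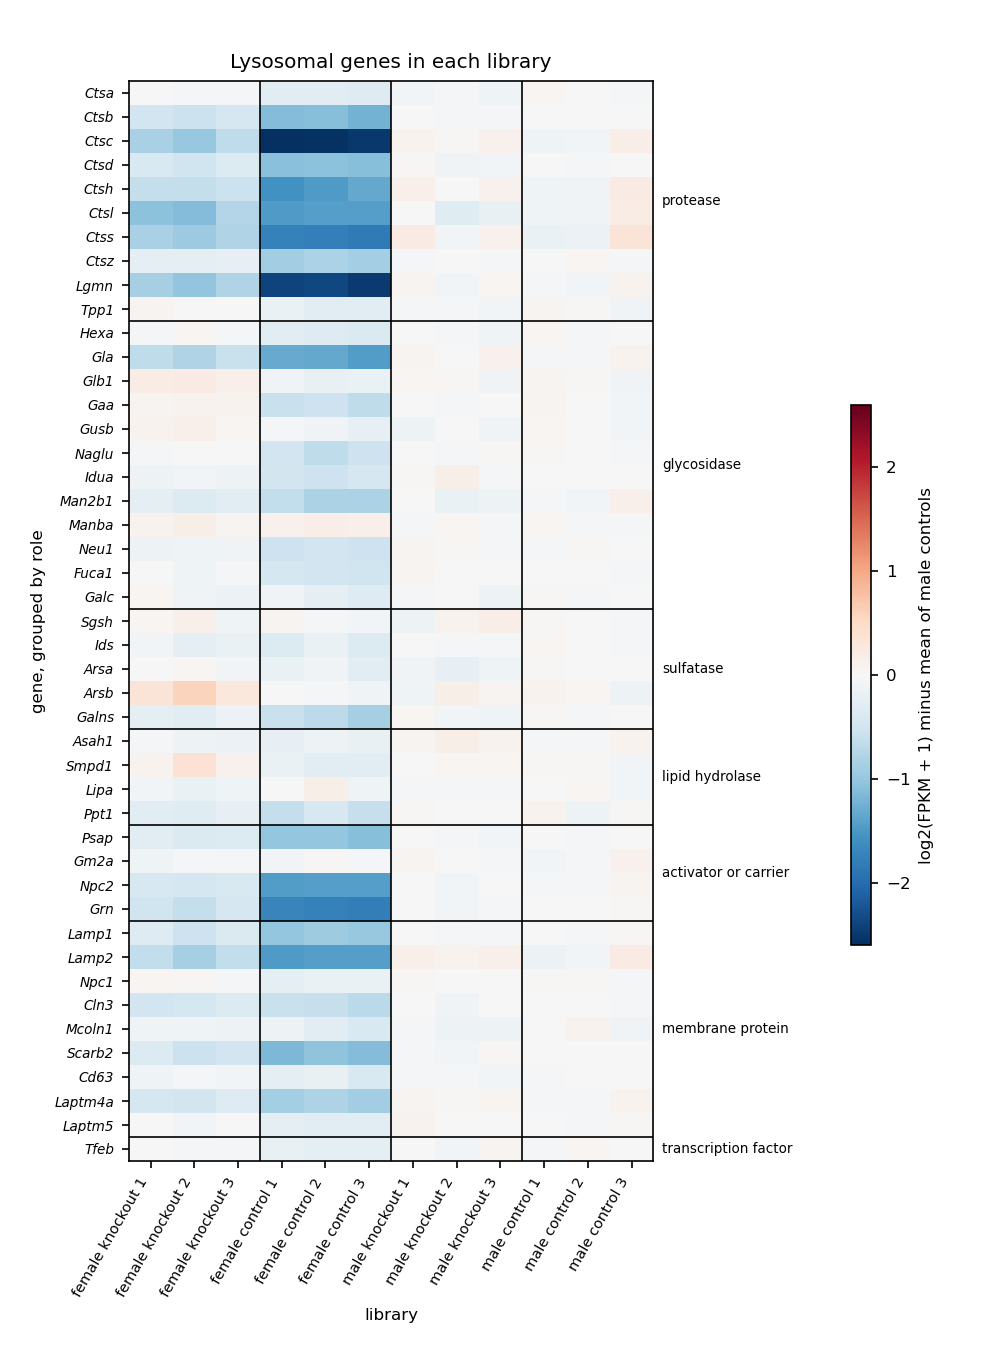
Level of each of the 45 lysosomal genes (rows, by role) in each of the 12 libraries (columns), as log2(FPKM + 1) minus the mean of the 3 male controls. The female controls hold the deepest blue, reaching −2.59 on average for Ctsc, the female knockouts are paler in most rows, and the male columns stay near 0.

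The first comparison was of the libraries labelled female knockout with female controls. Of the 45 genes, 37 were higher in female knockouts than in female controls, 0 were lower and 8 did not pass (limma on log2(FPKM + 1), Benjamini-Hochberg adjusted p under 0.05 over 12102 genes). Over all genes tested 24.9% were called higher and 24.9% lower. The median log2 difference was 0.43 for the 45 genes and −0.01 for all genes tested, with a range among the 45 of −0.14 (Lipa) to 1.77 (Ctsc). The batches gave medians of 0.32, 0.39 and 0.40, and 42 genes had the same sign in all 3 batches. Of these, Manba, Lipa and Gm2a were negative in all 3 and the rest positive. The share of all genes with the same sign in all 3 batches was not counted. Without the library labelled female knockout replicate 3 the count was again 37 higher and 0 lower, with a median of 0.39. By role, 10 of 10 proteases, 10 of 12 glycosidases, 3 of 5 sulfatases, 2 of 4 lipid hydrolases, 3 of 4 activator or carrier genes, 8 of 9 membrane protein genes and Tfeb were higher.

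The scaling of the deposited values bears on these counts. The reads assigned to genes were 1.01 to 1.02 times the authors' FPKM denominator in female knockouts but 0.936 to 0.948 times in female controls. With FPKM rescaled to assigned reads the split was 31 higher and 3 lower, with all genes shifted to a median of −0.10. With rescaling to nuclear protein-coding genes it was 24 and 4, all genes shifted to −0.17. Quantile normalization gave 29 and 2, and voom on the recovered reads 31 and 3. The genes called lower under these scalings were Lipa and Gm2a under all 4, Manba under 3 of them and Asah1 under the nuclear protein-coding scaling. Median-ratio rescaling, by contrast, left the median of all genes at 0.00 and gave 38 higher and 0 lower. Of all 12102 genes, 2224 were higher and 4349 lower with assigned reads, and 1750 and 5380 with nuclear protein-coding genes. The all-gene counts were 2467 and 3540 with quantile normalization, 2187 and 4337 with voom, and 3200 and 2813 with median-ratio rescaling. Set against the median of all genes, the median of the 45 stayed between 0.30 and 0.45 higher under every scaling and filter tried, against 0.44 as deposited. The call was kept by 24 of the 37 genes in all 24 alternative fits. The others were Ctsa, Tpp1, Hexa, Glb1, Gusb, Arsa, Arsb, Ppt1, Npc1, Cln3, Cd63, Laptm5 and Tfeb. Each of them lost its call with the nuclear protein-coding scaling.

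The largest rises of single genes were in the proteases Ctsc and Lgmn, although the median by role was higher for the activator or carrier genes (0.85) than for the proteases (0.67). Cathepsin C, encoded by Ctsc (chromosome 7), is a dipeptidyl peptidase that activates the serine proteases of immune cell granules. Ctsc had 130, 118 and 148 FPKM in female knockouts, against 35.6, 38.3 and 40.0 FPKM in female controls. In males it had 248, 238 and 251 FPKM in knockouts, against 216, 222 and 265 FPKM in controls. The female groups were far apart and the male groups overlapped, with female knockouts below every male library. The female difference was 3.47-fold, 1.77 ± 0.09 on the log2 scale (limma SE, adjusted p = 7.01e-08), and 1.68 without the library labelled female knockout replicate 3.

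Legumain, encoded by Lgmn (chromosome 12), is a protease that cuts after asparagine and processes several cathepsins into their mature forms. Lgmn had 258, 229 and 272 FPKM in female knockouts, against 87.2, 90.4 and 83.1 FPKM in female controls (2.91-fold, log2 1.53 ± 0.07, adjusted p = 3.52e-08). It had 493, 444 and 485 FPKM in male knockouts, against 461, 448 and 500 FPKM in male controls. Every female control lay below every female knockout, and the male groups overlapped.

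Cathepsin S, encoded by Ctss (chromosome 3), trims the invariant chain of MHC class II molecules. Ctss had 1815, 1698 and 1891 FPKM in female knockouts, against 961, 953 and 907 FPKM in female controls (log2 0.94 ± 0.12, adjusted p = 8.58e-05). In males it had 3761, 3080 and 3512 FPKM in knockouts, against 2870, 2920 and 4086 FPKM in controls. Male control replicate 3 was well above the other male controls, and the male groups overlapped. Ctsh, for the aminopeptidase cathepsin H, had 32.3, 32.4 and 33.7 FPKM in female knockouts, against 16.0, 17.3 and 19.2 FPKM in female controls (0.87 ± 0.09, adjusted p = 1.08e-05). The same male control library was highest for Ctsh, at 57.7 FPKM against 46.4 and 46.6 FPKM in the other male controls.

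The general endopeptidases of the lysosome rose by smaller amounts. Ctsd, for the aspartic protease cathepsin D, had 949, 866 and 971 FPKM in female knockouts, against 582, 589 and 576 FPKM in female controls (0.67 ± 0.05, adjusted p = 1.14e-06). Ctsb, for the cysteine protease cathepsin B, had 818, 777 and 848 FPKM in female knockouts, against 527, 531 and 487 FPKM in female controls (0.66 ± 0.05, adjusted p = 7.02e-07). Neither pair of female groups overlapped. Ctsl, for cathepsin L, had 136, 130 and 169 FPKM in female knockouts, against 103, 106 and 106 FPKM in female controls (0.46 ± 0.11, adjusted p = 0.00580). The library labelled female knockout replicate 3 was the highest of the female libraries for Ctsl. The carboxypeptidase gene Ctsz rose by 0.64, and Ctsa and Tpp1 had the smallest rises of the proteases, 0.28 and 0.26. With the nuclear protein-coding scaling Ctsa (0.09) and Tpp1 (0.08) were not called. Ctsa encodes the carboxypeptidase that holds β-galactosidase and neuraminidase 1 in a complex, and Tpp1 encodes a tripeptidyl peptidase.

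**Figure D2:**
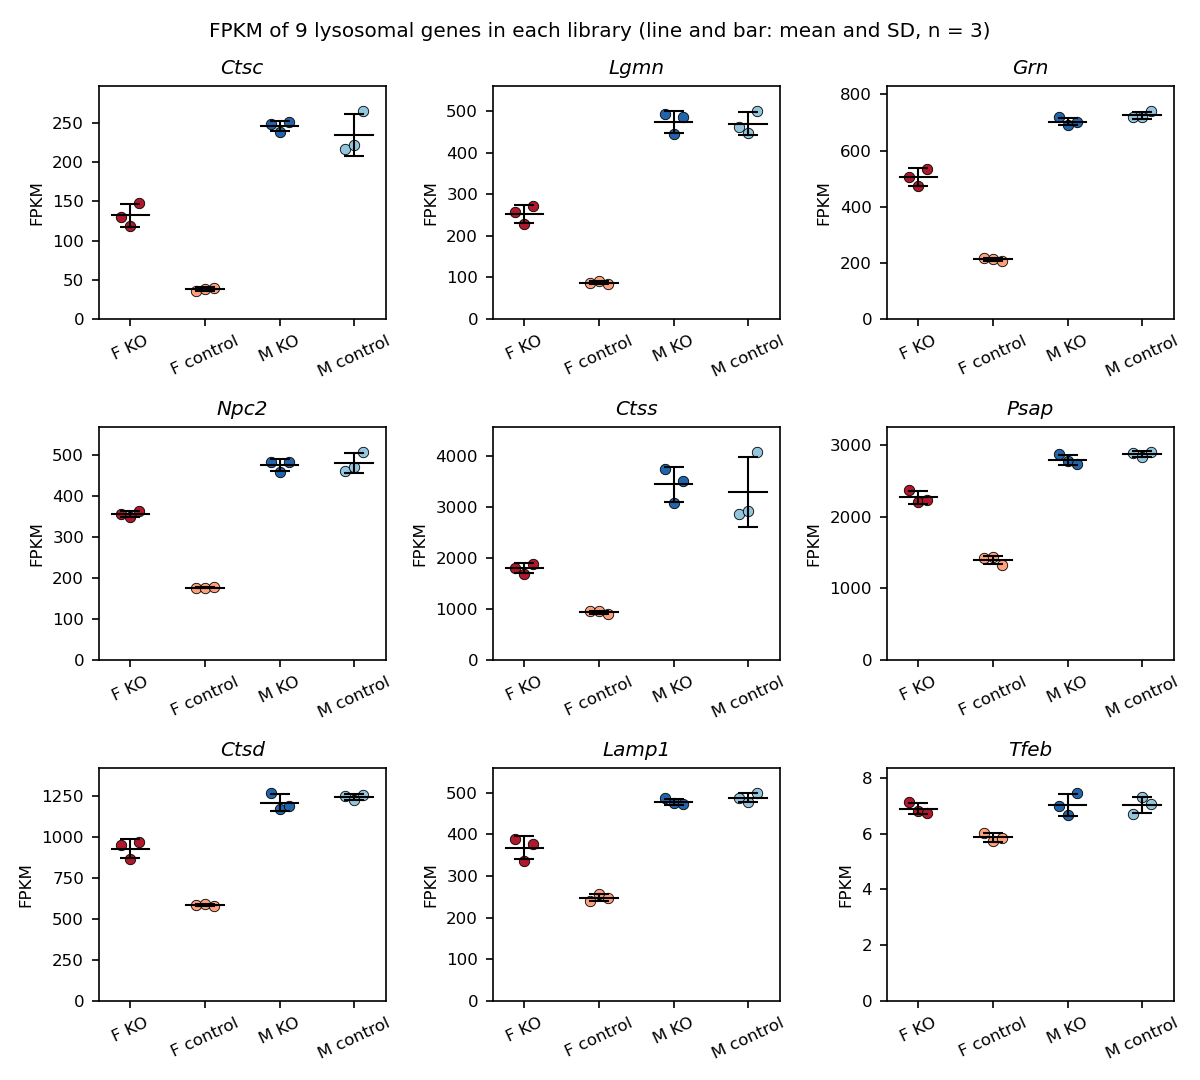
FPKM (linear axis from 0) of 9 lysosomal genes in each library, in female knockouts, female controls, male knockouts and male controls; the line and bar give the mean and SD of 3 libraries. In all 9 panels the female controls are lowest and do not overlap the female knockouts, while male knockouts and male controls overlap.

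Among the activator, carrier or growth factor precursor genes, Grn, Npc2 and Psap rose and Gm2a did not pass. Progranulin, encoded by Grn (chromosome 11), is a secreted precursor that lysosomal proteases cut into granulins. Grn had 507, 472 and 536 FPKM in female knockouts, against 219, 213 and 208 FPKM in female controls (2.37-fold, log2 1.24 ± 0.05, adjusted p = 1.06e-08). In males it had 718, 691 and 701 FPKM in knockouts, against 720, 718 and 741 FPKM in controls. The male groups overlapped only through replicate 1 of the knockouts, which lay level with the lowest control.

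NPC2 carries cholesterol inside the lysosome and hands it to the membrane protein NPC1. Npc2 (chromosome 12) had 357, 348 and 364 FPKM in female knockouts, against 175, 176 and 178 FPKM in female controls (2.02-fold, log2 1.01 ± 0.04, adjusted p = 2.18e-08). Its partner Npc1 averaged 18.8 FPKM in female knockouts and 16.2 FPKM in female controls, a rise of 0.20 ± 0.04 (adjusted p = 0.00237). Both groups of 3 were tight for Npc2 and did not overlap. Psap had 2379, 2204 and 2234 FPKM in female knockouts, against 1427, 1439 and 1327 FPKM in female controls (0.70 ± 0.05, adjusted p = 5.27e-07). Gm2a, whose product lifts GM2 ganglioside out of the membrane for hexosaminidase A, had 103, 107 and 108 FPKM in female knockouts, against 105, 114 and 109 FPKM in female controls, with overlapping groups (−0.04, adjusted p = 0.541).

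Of the membrane protein genes, Lamp2 rose the most. LAMP1 and LAMP2 are heavily glycosylated proteins that line the lysosomal membrane, and LAMP2 also serves autophagosome fusion and chaperone-mediated autophagy. Lamp2 (chromosome X) had 57.5, 49.3 and 58.2 FPKM in female knockouts, against 32.0, 33.2 and 32.8 FPKM in female controls (0.73 ± 0.09, adjusted p = 4.96e-05). Lamp1 (chromosome 8) had 389, 336 and 377 FPKM in female knockouts, against 241, 256 and 247 FPKM in female controls (0.56 ± 0.05, adjusted p = 7.69e-06). Replicate 2 was the lowest female knockout for both genes, and it was still above every female control. Scarb2, for the receptor that brings β-glucocerebrosidase to the lysosome, rose by 0.63, and Laptm4a by 0.44. Laptm5 (0.26), the tetraspanin gene Cd63 (0.22), Npc1 and Cln3 (0.19) had smaller rises, and Mcoln1 did not pass (6.94 FPKM in female knockouts and 6.18 FPKM in female controls, 0.15, adjusted p = 0.0811). With the nuclear protein-coding scaling Laptm5 (0.07), Cd63 (0.03), Npc1 (0.03) and Cln3 (0.02) were not called.

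Glycosidases remove sugars from glycoproteins, glycolipids and glycogen. The largest rises among them were in Gla, the α-galactosidase lost in Fabry disease, and Gaa, the acid α-glucosidase that degrades glycogen. Gla (chromosome X) averaged 48.4 ± 3.22 FPKM in female knockouts and 29.7 ± 1.66 FPKM in female controls (SD, n = 3 each; 0.69 ± 0.06, adjusted p = 5.07e-06). Gaa had 28.3, 28.9 and 28.7 FPKM in female knockouts, against 17.8, 18.3 and 16.7 FPKM in female controls (0.67 ± 0.05, adjusted p = 7.06e-07). Neither gene's female groups overlapped. The heparan sulfate enzyme Naglu rose by 0.54, the α-mannosidase Man2b1 by 0.46, the fucosidase Fuca1 by 0.44, the sialidase Neu1 by 0.42 and the iduronidase Idua by 0.37. The β-galactosidase gene Glb1 (0.33), Hexa for the α-subunit of hexosaminidase (0.32) and the β-glucuronidase gene Gusb (0.21) had the smallest rises. With the nuclear protein-coding scaling Glb1 (0.15), Hexa (0.13) and Gusb (0.02) were not called. The β-mannosidase gene Manba averaged 13.9 ± 0.403 FPKM in female knockouts and 14.3 ± 0.329 FPKM in female controls, and these groups overlapped (−0.04, adjusted p = 0.458). Galc did not pass either (0.16, adjusted p = 0.0969).

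Sulfatases, which strip sulfate from glycosaminoglycans and sulfatides, were split. Galns (0.47), Arsb (0.43) and Arsa (0.18) rose, whereas Ids (0.14, adjusted p = 0.0647) and Sgsh (0.03, adjusted p = 0.753) did not pass. Arsb, for the enzyme that removes sulfate from dermatan sulfate, had 103, 123 and 98.8 FPKM in female knockouts, against 82.2, 80.0 and 76.9 FPKM in female controls. Its groups did not overlap, and replicate 2 was the highest female knockout. The rise of Arsa (adjusted p = 0.0244) rested on single libraries, with an adjusted p of 0.0559 without female knockout replicate 1, 0.0857 without female knockout replicate 2 and 0.0973 without female control replicate 3. Of the lipid hydrolases, the acid sphingomyelinase gene Smpd1 rose by 0.44 and the palmitoyl thioesterase gene Ppt1 by 0.27. With the nuclear protein-coding scaling Ppt1 (0.10) and the sulfatase genes Arsb (0.25) and Arsa (0.00) were not called. The acid ceramidase gene Asah1 averaged 101 FPKM in female knockouts and 95.9 FPKM in female controls (0.07, adjusted p = 0.269). Lipa, for the acid lipase that frees cholesterol from its esters, had 98.0, 91.7 and 95.4 FPKM in female knockouts, against 104, 115 and 96.2 FPKM in female controls. The single overlap lay between female knockout replicate 1 and female control replicate 3, and the difference of −0.14 did not pass (adjusted p = 0.0801), but Lipa was called lower without female control replicate 3 (−0.20, adjusted p = 0.0184).

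Tfeb (chromosome 17) differed between the female groups by less than the median of the 45 genes. It had 7.12, 6.82 and 6.75 FPKM in female knockouts, against 6.02, 5.72 and 5.86 FPKM in female controls (0.20 ± 0.05, adjusted p = 0.00519). In males it had 6.99, 6.66 and 7.46 FPKM in knockouts, against 6.71, 7.30 and 7.06 FPKM in controls. The female groups did not overlap and the male groups did. Tfeb lost its call in females when FPKM were rescaled to assigned reads (0.11, adjusted p = 0.0752), to nuclear protein-coding genes (0.04, adjusted p = 0.532) or with voom (0.13, adjusted p = 0.113). Its relatives did not share a direction. Tfe3 rose by 0.25 (adjusted p = 0.00281). Mitf, a family member with an established role in osteoclasts, fell to 17.0 ± 0.376 FPKM in female knockouts, against 22.9 ± 1.06 FPKM in female controls (−0.41, adjusted p = 2.57e-05). Tfec did not pass (−0.12, adjusted p = 0.147). Transcript levels do not report where these proteins are in the cell, which is how nutrients control TFEB.

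Promoters were examined because the rises were shared by many of the genes. RefSeq promoter sequences (build GRCm38.p6, from 250 bases before to 50 after the start) were found for 40 of the 45 genes, with 46 promoters among them. The E-box core CACGTG, which reads the same on both strands, was in 13 of the 46 promoters (28.3%) and in 2349 of 32851 promoters of all genes (7.15%). The longer CLEAR palindrome, that core with GT before it and AC after it, was in 1 of the 46 (2.17%) and in 0.326% of all promoters. The interferon-type element is a pair of GAAA runs with any 2 bases between them. Searched on both strands, it was in 2 of the 46 (4.35%), and in 3.44% of all promoters. The windows printed next are that with the most E-boxes (Lamp1, with 4), some of those with 2 (Cln3, Mcoln1 and Gla; Ctsd and Ctsa also hold 2 and are not printed), those of a large rise, a middling rise and no call among genes with 1 E-box (Lgmn, Naglu and Sgsh), and the interferon-type match of Ctss. Each reads 5′ to 3′ on the gene's strand with the motif in capitals.
Lamp1 (chr8:13159080-13159160, plus strand): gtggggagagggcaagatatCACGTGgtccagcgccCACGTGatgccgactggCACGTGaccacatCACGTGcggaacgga
Cln3 (chr7:126583332-126583405, minus strand): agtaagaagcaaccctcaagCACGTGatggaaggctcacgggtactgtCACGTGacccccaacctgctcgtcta
Mcoln1 (chr8:3500428-3500499, plus strand): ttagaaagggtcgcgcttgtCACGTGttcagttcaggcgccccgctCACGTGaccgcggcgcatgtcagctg
Gla (chrX:134601174-134601252, minus strand): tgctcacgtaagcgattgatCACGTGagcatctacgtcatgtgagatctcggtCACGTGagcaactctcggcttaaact
Lgmn (chr12:102439116-102439161, minus strand): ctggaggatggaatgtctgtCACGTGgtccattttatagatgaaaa
Naglu (chr11:101070001-101070046, plus strand): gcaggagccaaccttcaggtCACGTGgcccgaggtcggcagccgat
Sgsh (chr11:119355514-119355559, minus strand): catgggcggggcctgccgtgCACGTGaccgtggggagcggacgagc
Ctss (chr3:95526745-95526785, plus strand): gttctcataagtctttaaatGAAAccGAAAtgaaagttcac

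Counted from the start of transcription, the 4 E-boxes of Lamp1 began at −61, −45, −28 and −15, and the pair of Mcoln1 began at −71 and −45. Those of Cln3 began at −149 and −121, the second of them inside the CLEAR palindrome. The match of Ctss to the interferon-type element began at −21. In females, 11 of the 13 genes with an E-box in the window were higher in knockouts, with a median of 0.46, as were 22 of the 27 genes whose promoters lacked it, with a median of 0.42. The other 5 genes, with no promoter in the table, had 4 higher. The genes with an E-box ran from Sgsh at 0.03 to Lgmn at 1.53, and Mcoln1 with 2 E-boxes did not pass, while Ctsc at 1.77 had no E-box in the window. A match is a description of the letters in the window, and a missing match says nothing about binding elsewhere.

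In male cultures none of the 45 genes passed. The test called 0% of all 12102 genes higher and 0% lower in male knockouts against male controls. At an unadjusted p under 0.05 there were 1 of the 45 genes (2.22%) and 822 of all genes (6.79%). Voom on the recovered reads called 0 genes higher and 2 lower, neither of them among the 45. The log2 differences ran from −0.18 (Ctsl) to 0.12 (Lamp2) with a median of −0.01. The smallest p belonged to the arylsulfatase A gene Arsa, with 10.6, 9.70 and 10.4 FPKM in male knockouts, against 11.6, 11.2 and 11.2 FPKM in male controls (−0.13, limma adjusted p = 0.727). It was followed by Asah1 (118 FPKM in male knockouts and 110 FPKM in male controls, 0.10, adjusted p = 0.735) and Ctsa (176 FPKM in male knockouts and 185 FPKM in male controls, −0.08, adjusted p = 0.744). Of the 45 genes only Arsa had male groups that did not overlap. For a single gene, such a separation of 3 against 3 libraries has an exact permutation p of 0.1. The share of all genes without overlap was not counted, so nothing is read from it.

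The knockout effects of the sexes were compared directly with the interaction term, the female minus the male log2 difference. It was called higher for 36 of the 45 genes and lower for 0, against 17.9% and 16.7% of all genes tested, with a median of 0.39 for the 45 genes. The largest were Ctsc (1.69 ± 0.13, adjusted p = 4.14e-06), Lgmn (1.51 ± 0.10, adjusted p = 1.57e-06), Grn (1.28 ± 0.07, adjusted p = 4.86e-07) and Npc2 (1.02 ± 0.06, adjusted p = 9.24e-07). Next came Ctss at 0.85, Ctsh at 0.79, Psap at 0.74 and Ctsd at 0.71. Ppt1, which rose in females, just missed here (0.26, adjusted p = 0.0548). Without the library labelled female knockout replicate 3 the interaction was higher for 34 genes, with Cln3 (adjusted p = 0.0705) and Tfeb (adjusted p = 0.0549) no longer past the threshold. The splits under other scalings were 27 higher and 0 lower with assigned reads and with voom, 22 and 4 with nuclear protein-coding genes, and 25 and 2 with quantile normalization, which took Ctss to 0.49 (adjusted p = 0.0754). With median-ratio rescaling 38 were higher and 0 lower. Over all 12102 genes the interaction was higher for 1637 and lower for 3113 with assigned reads, and for 1778 and 3220 with voom. The all-gene counts were 1287 and 4143 with nuclear protein-coding genes, 1767 and 2467 with quantile normalization, and 2314 and 1838 with median-ratio rescaling.

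**Figure D3:**
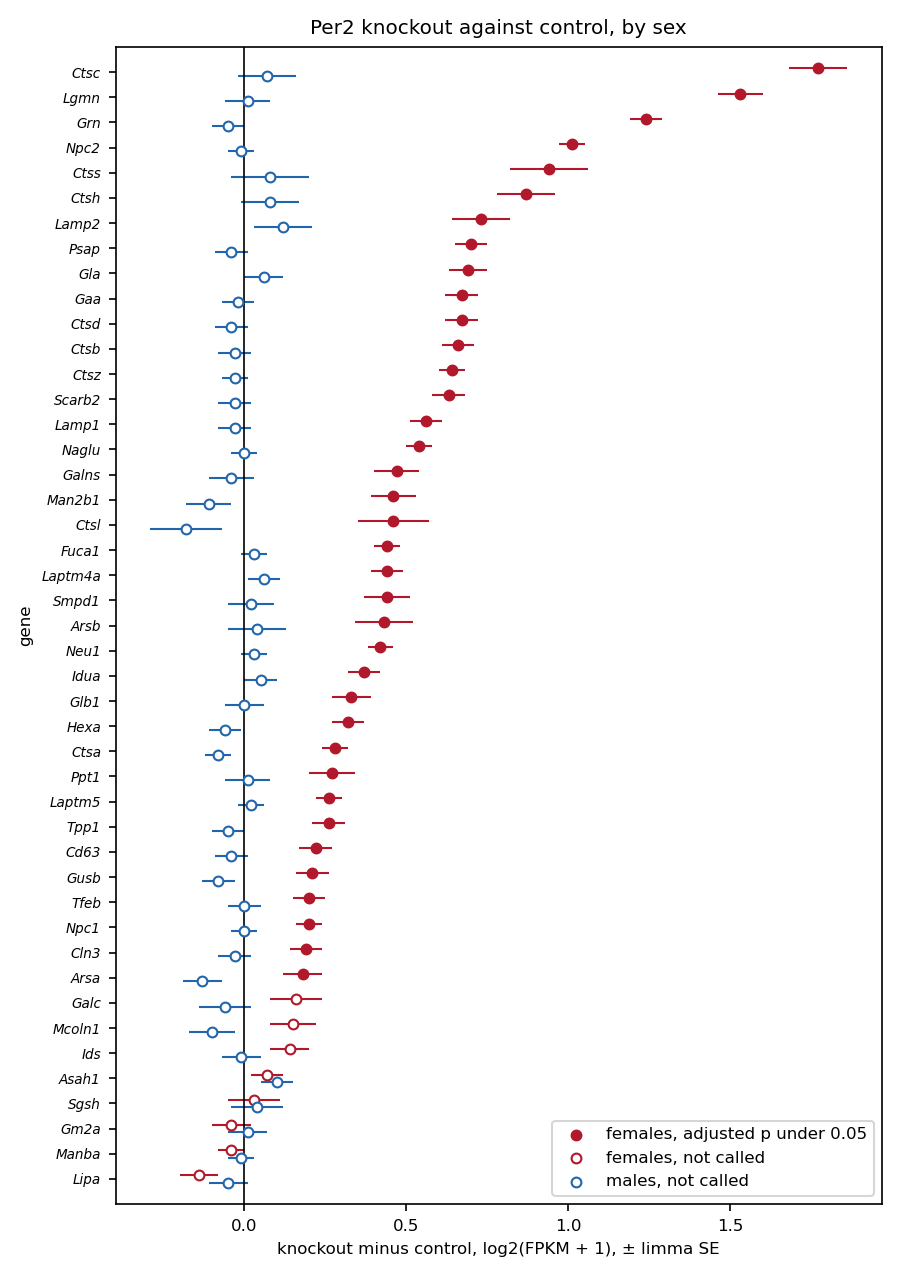
Knockout minus control difference in log2(FPKM + 1) for each of the 45 lysosomal genes, with the limma SE as a bar, in females (red) and males (blue); filled points have an adjusted p under 0.05. The female points run from −0.14 to 1.77 with 37 filled, and the male points run from −0.18 to 0.12 with 0 filled.

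The controls were compared between the sexes next. Female controls were lower than male controls for 39 of the 45 genes and higher for 1, Manba, against 30.7% lower and 29.5% higher among all genes tested. The median was −0.53 for the 45 genes. Proteases were furthest apart, with all 10 lower and a median of −1.30, then the activator or carrier genes with 3 of 4 lower and a median of −1.24. The largest differences were in Ctsc, with means of 38.0 FPKM in female controls and 234 FPKM in male controls (−2.59 ± 0.09, adjusted p = 1.03e-09), and Lgmn, with 86.9 FPKM in female controls and 470 FPKM in male controls (−2.42 ± 0.07, adjusted p = 3.55e-10). They were followed by Ctss (−1.79), Grn (−1.76), Ctsh (−1.47), Lamp2 (−1.45), Npc2 (−1.44) and Ctsl (−1.44). Gusb, Sgsh, Arsb, Lipa and Gm2a did not pass. This comparison shares the 3 female control libraries with the female knockout comparison, so the values of the 2 are not independent, and they are given side by side without a test of their likeness.

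For the most abundant genes the female and male control libraries were also well apart. Ctsd averaged 582 ± 6.55 FPKM in female controls and 1243 ± 17.0 FPKM in male controls (−1.09), and Ctsb averaged 515 ± 24.1 FPKM in female controls and 1148 ± 8.02 FPKM in male controls (−1.16; SD, n = 3 each). Psap averaged 1398 ± 61.5 FPKM in female controls and 2876 ± 39.1 FPKM in male controls (−1.04), and Lamp1 averaged 248 ± 7.61 FPKM in female controls and 488 ± 11.1 FPKM in male controls (−0.97). None of these groups overlapped. The 3 genes on chromosome X, Gla (−1.36), Lamp2 (−1.45) and Ids (−0.29), were all lower in the female controls. Manba averaged 14.3 ± 0.329 FPKM in female controls and 12.8 ± 0.346 FPKM in male controls (0.14, adjusted p = 0.00953). The control splits depended on scaling, with 3 higher and 26 lower for assigned reads and for voom, 9 and 25 for nuclear protein-coding genes, and 6 and 29 for quantile normalization. Under these the median of all genes moved to 0.17, 0.22, 0.28 and 0.09, and the median of the 45 genes stayed 0.40 to 0.55 below it. Median-ratio rescaling left the split at 1 higher and 39 lower. Of all 12102 genes, 5632 were higher and 2476 lower in female controls with assigned reads, and 5640 and 2458 with voom. The all-gene counts were 6769 and 1966 with nuclear protein-coding genes, 4562 and 2929 with quantile normalization, and 3582 and 3709 with median-ratio rescaling.

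Between the knockouts the sexes were closer. Female knockouts were lower than male knockouts for 23 of the 45 genes and higher for 4, against 20.4% lower and 13.1% higher among all genes, with a median of −0.14 for the 45 genes. Ctss (1801 ± 97.0 FPKM in female knockouts and 3451 ± 345 FPKM in male knockouts, −0.93), Lgmn (−0.91), Ctsc (−0.90), Lamp2 (−0.83), Ctsl (−0.81), Gla (−0.73), Ctsh (−0.67) and Laptm4a (−0.49) were furthest below. Arsb (0.36), Glb1 (0.18), Gusb (0.18) and Manba (0.11) were higher in female knockouts, and each of the 4 lost its call in at least 1 fit that left out a library. Without the library labelled female knockout replicate 3 the split was 3 higher and 21 lower. Rescaling gave 10 higher and 17 lower with assigned reads and with voom, 11 and 16 with nuclear protein-coding genes, and 10 and 16 with quantile normalization. Median-ratio rescaling gave 4 higher and 20 lower. Of all 12102 genes, 3187 were higher and 1597 lower in female knockouts with assigned reads, and 3388 and 1663 with voom. The all-gene counts were 3695 and 1403 with nuclear protein-coding genes, 2504 and 1869 with quantile normalization, and 1863 and 2204 with median-ratio rescaling.

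**Figure D4:**
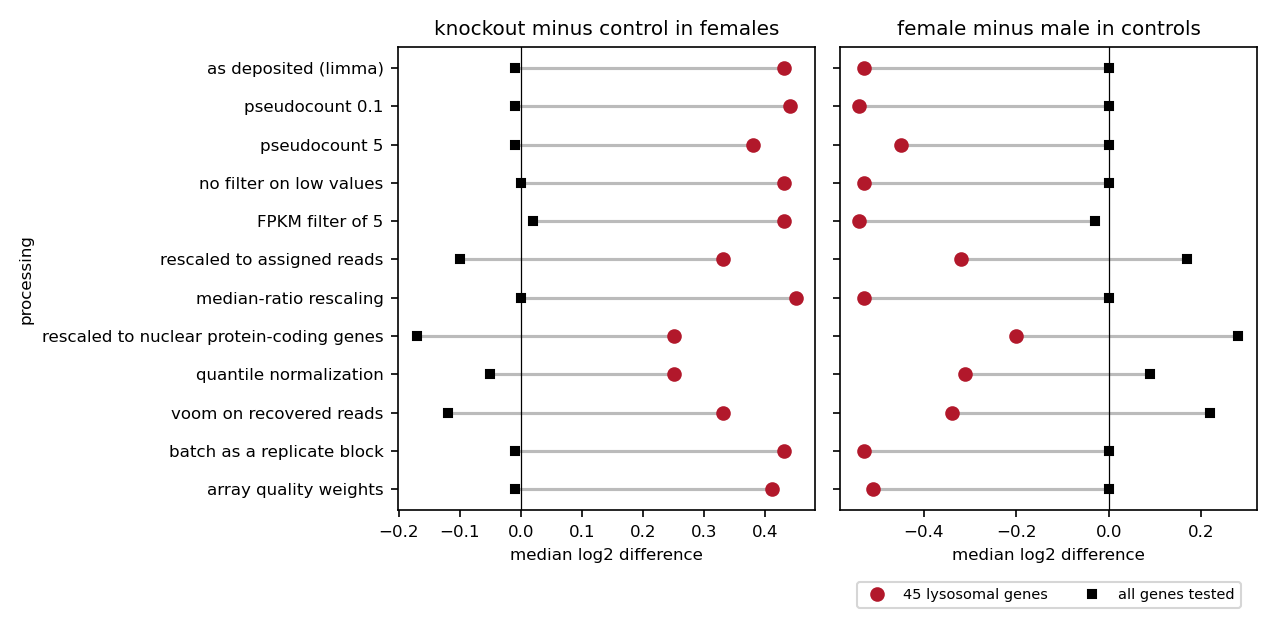
Median log2 difference of the 45 lysosomal genes (red circles) and of all genes tested (black squares) under each processing (rows), for knockout minus control in females and for female minus male in controls. Rescaling to assigned reads or nuclear protein-coding genes, quantile normalization and voom move both medians, and median-ratio rescaling moves them little. The distance between them stays at 0.30 to 0.45 in the left panel and at −0.55 to −0.40 in the right panel.

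Lysosomal genes outside the 45 were followed through further lists. As a reference for their counts, 24.9% of all genes tested were called higher in female knockouts and 24.9% lower. Of 23 other lysosomal enzyme or cofactor genes tested, 14 were higher and 0 lower in female knockouts (median 0.36). Among them were the serine carboxypeptidase gene Scpep1 (0.75, adjusted p = 5.33e-08), Plbd2 (0.84, adjusted p = 1.6e-07) and the acid phosphatase gene Acp2 (0.86, adjusted p = 6.98e-07). Ctsk did not pass (0.19, adjusted p = 0.104). Of 27 other membrane protein and transporter genes, 17 were higher and 0 lower (median 0.26). Slc15a3, for a lysosomal peptide and histidine transporter, averaged 32.7 ± 3.61 FPKM in female knockouts and 9.12 ± 0.370 FPKM in female controls (1.73, adjusted p = 1.45e-08), against 75.3 ± 1.74 FPKM in male knockouts and 70.2 ± 3.93 FPKM in male controls. Pip4p1 (0.63), the macrophage marker Cd68 (0.49) and Litaf (0.63) also rose.

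Genes for sorting enzymes to the lysosome were split. Of 15 genes of mannose-6-phosphate and sortilin sorting, 3 were higher and 2 lower in female knockouts, with a median of 0.04, where 24.9% of all genes tested were called in each direction. The adaptor gene Gga1 rose by 0.26 (adjusted p = 0.00106) and the sorting receptor gene Sorl1 by 0.24 (adjusted p = 0.0165), while the retromer gene Vps35 fell by 0.22 (adjusted p = 0.00360) and Sort1, for sortilin, fell by 0.40 (adjusted p = 0.00573). Of 8 genes for cystatins and other inhibitors of lysosomal proteases, 5 were higher and 0 lower (median 0.47). Cst7 averaged 9.07 ± 0.767 FPKM in female knockouts and 4.69 ± 0.494 FPKM in female controls (0.82, adjusted p = 3.75e-06), and Cstb (0.45), Cst3 (0.41) and Serpinb6a (0.53) also rose.

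In female knockouts 24.9% of all genes tested were called higher and 24.9% lower. Of 19 genes for TFE factors and the nutrient sensing complex that controls them, 7 were higher and 3 lower (median 0.04). Lamtor4 (0.45), Rragc (0.31) and Lamtor1 (0.32) were among the 7. LAMTOR1 and LAMTOR4 belong to the Ragulator complex, which anchors the Rag GTPases, RRAGC among them, to the lysosome. Of 21 autophagy genes 15 were higher and 1 lower (median 0.25). The ATG8 family genes Map1lc3a (0.82, adjusted p = 4.08e-06) and Gabarap (0.40, adjusted p = 1.4e-05), the receptor gene Sqstm1 (0.30) and Plekhm1 (0.45), which acts in fusion with lysosomes and in osteoclast vesicle transport, had the smallest p. None of the 6 lists had a member past the threshold in males. Hgsnat stands in 2 of the lists.

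Markers of macrophages moved with the lysosomal genes. Of 15 macrophage markers tested of 16 listed, 14 were higher and 1 lower in female knockouts, with a median of 0.98. The shares over all genes tested were 24.9% higher and 24.9% lower. Their summed level was 2837 to 3129 FPKM in female knockouts, 1317 to 1342 FPKM in female controls, 4042 to 4391 FPKM in male knockouts and 4144 to 4582 FPKM in male controls, with no marker at 0. The 4 groups stood in the order of the summed lysosomal genes, female controls lowest and the males highest. Their part in the result was not tested. Fcgr1, an Fc receptor of macrophages, averaged 135 ± 21.4 FPKM in female knockouts and 6.95 ± 2.02 FPKM in female controls, and Adgre1, for F4/80, averaged 304 ± 29.8 FPKM in female knockouts and 83.4 ± 3.75 FPKM in female controls (SD, n = 3 each).

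Osteoclast markers, which check the labelled cell type, were abundant everywhere. The 11 markers summed to 11633 to 14208 FPKM in female knockouts and 9461 to 10550 FPKM in female controls. In males they summed to 9308 to 10278 FPKM in knockouts and 9104 to 10484 FPKM in controls. In female knockouts 6 of the 11 were higher and 1 lower, against 24.9% of all genes tested in each direction. The tartrate-resistant acid phosphatase gene Acp5 rose by 0.37 and Mmp9 by 0.43, while Ctsk, also one of the 11, did not pass. Neutrophil markers summed to 2308 to 2989 FPKM in female knockouts and 2399 to 2589 FPKM in female controls. In males the neutrophil sums were 3608 to 4508 FPKM in knockouts and 3117 to 5270 FPKM in controls. Of the 10 neutrophil markers 6 were lower in female than in male controls (median −0.66), against 30.7% of all genes tested. B cell markers ran the other way in females, with 34.1 to 55.5 FPKM in female knockouts and 73.8 to 90.7 FPKM in female controls, and had 31.5 to 86.3 FPKM in male knockouts and 44.7 to 92.4 FPKM in male controls. Dendritic cell markers summed to 87.1 to 103 FPKM in female knockouts, 67.1 to 71.0 FPKM in female controls, 137 to 164 FPKM in male knockouts and 121 to 166 FPKM in male controls. Mast cell or basophil markers, of which Mcpt4 was at 0 in all libraries, summed to 9.79 to 15 FPKM in female knockouts, 20.4 to 39.8 FPKM in female controls, 19.6 to 50.4 FPKM in male knockouts and 13.3 to 32.3 FPKM in male controls, and 2 of 5 tested were lower in female knockouts (median −0.67). Erythroid markers summed to 3.77 to 4.41 FPKM in female knockouts, 5.23 to 7.87 FPKM in female controls, 4.48 to 7.97 FPKM in male knockouts and 2.62 to 6.69 FPKM in male controls. For both of these lists the female groups did not overlap. T or NK cell markers summed to 3.51 to 4.79 FPKM in female knockouts, 4.16 to 5.49 FPKM in female controls, 6.32 to 9.34 FPKM in male knockouts and 5.85 to 12.2 FPKM in male controls. Stromal markers summed to 7.53 to 18.5 FPKM in female knockouts, 7.42 to 30.3 FPKM in female controls, 9.98 to 13.6 FPKM in male knockouts and 20.1 to 39.6 FPKM in male controls. The part of any of these cells in the lysosomal differences was not tested. Mitochondrially encoded genes took 5.41 to 6.38% of all FPKM in female knockouts, 7.37 to 8.15% in female controls, 3.67 to 4.45% in male knockouts and 3.77 to 4.33% in male controls, and their part was not tested either.

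Some of the 45 genes share ground with neighbours, and the strand setting of the counting is not given. By the gene positions deposited with the values, 21 of them overlap another gene and 13 a protein-coding one. In 6 the overlapping protein-coding gene had over 20% of the member's level: Ctsa with Pltp, Idua with Dgkq and Slc26a1, Sgsh with Card14, Ppt1 with Cap1, Npc1 with Rmc1 and Cln3 with Apobr. Cap1 averaged 202 FPKM against 19.1 FPKM for Ppt1, and Apobr 37.6 FPKM against 13.7 FPKM for Cln3, so these values are uncertain. Ctsc, Lgmn, Npc2, Psap, Lamp2 and Gla overlap no gene.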

How the data were processed

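RNA sequencing values of 12 mouse osteoclast libraries were read from 1 table of the whole series, and the labels gave each library's group, sex and batch. The authors deposited FPKM, which is the unit of every value. HISAT2 2.0.5, featureCounts 1.5.0-p3 and build mm10 stand in the submitters' processing notes. Not given in the sources used here are the strand setting, the annotation and the FPKM denominator. Of the gene identifiers, 52132 were shared with GENCODE M21 and 1546 of these (3.0%) had the same position, so only chromosomes are given. 1 line without a gene was left out, and 0 value columns were unmapped.

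FPKM times gene length, over the step of 1 read, gave whole reads within 0.01 for 100.0% of 122984 values checked, and so the depth. The model was limma (3.58.1, R 4.3.3) on log2(FPKM + 1), with 4 group means over the 12 libraries, no block and a variance trend. It covered the 12102 genes that reached 1 FPKM in 3 or more libraries. P-values were two-sided and adjusted by Benjamini-Hochberg over all of these genes, with a threshold of 0.05, and every adjusted p is from this model unless another tool is named. Log2 differences are on the log2(FPKM + 1) scale, which understates changes of low genes. The fit was also run on simulated counts with the same scaling in all groups. That run cannot decide how the scaling of the deposited values acts. Single values for Per2 used an exact permutation test. The members, the 6 pathway lists and the 9 marker lists were chosen with earlier results of these data known.

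In each comparison up to 8 members were named in each direction among those past the threshold with 1 sign in all 3 batches. The 3 members with the smallest p were named where fewer passed. Up to 4 genes of each pathway list were named, and Tfeb, Lamp1, Lamp2, Ctsb, Ctsd, Ctsl and Ctss always. Every member is accounted for. A gene that the rule reached in a pathway list is not reported here. Replicate numbers match the labelled batches and so pair libraries across groups. The deviations of same-numbered libraries from their group means correlated at 0.021 on average over 18 pairs (−0.118 to 0.092), and those of other pairs at −0.011 over 36 (−0.16 to 0.184). Alternatives were pseudocounts of 0.1 and 5, no filter, a filter of 5 FPKM, 4 rescalings, voom on the recovered reads, the batch block, array quality weights, fits of only the groups compared, and leaving out each library.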

Additional observations from a re-analysis of the deposited data

Results flagged for a closer look

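The knockout effect differed between the sexes for 36 of the 45 lysosomal genes by the interaction term, the female minus the male log2 difference (limma, adjusted p under 0.05), and it was positive in every one of the 36. Over all genes tested the interaction term was called higher for 17.9% and lower for 16.7%. Among the proteases it was 1.69 for Ctsc, 1.51 for Lgmn, 0.85 for Ctss, 0.79 for Ctsh, 0.71 for Ctsd, 0.69 for Ctsb, 0.67 for Ctsz, 0.63 for Ctsl, 0.35 for Ctsa and 0.32 for Tpp1. Among the glycosidases it was 0.69 for Gaa, 0.63 for Gla, 0.57 for Man2b1, 0.54 for Naglu, 0.41 for Fuca1, 0.39 for Neu1, 0.38 for Hexa, 0.33 for Glb1, 0.32 for Idua and 0.28 for Gusb. Among the sulfatases it was 0.51 for Galns, 0.39 for Arsb and 0.31 for Arsa, and among the lipid hydrolases 0.41 for Smpd1. For the activator or carrier genes it was 1.28 for Grn, 1.02 for Npc2 and 0.74 for Psap. For the membrane protein genes it was 0.66 for Scarb2, 0.62 for Lamp2, 0.59 for Lamp1, 0.38 for Laptm4a, 0.26 for Cd63, 0.24 for Laptm5, 0.22 for Cln3 and 0.20 for Npc1, and for Tfeb it was 0.20. The term was called in all 12 fits that left out a library for 32 of the 36, the exceptions being Arsb, Npc1, Cln3 and Tfeb. Over all 23 alternative fits, rescalings among them, the call was kept for only 20 of the 36. The others were Ctsa, Ctss, Tpp1, Hexa, Glb1, Gusb, Idua, Arsa, Arsb, Smpd1, Npc1, Cln3, Cd63, Laptm4a, Laptm5 and Tfeb.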

How the results depend on the processing

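In females the count of genes higher in knockouts ran from 36 to 39 over the fits that left out a library, and the count lower from 0 to 1, the 1 being Lipa without female control replicate 3. Rescaling gave 3 genes lower in female knockouts with assigned reads, 4 with nuclear protein-coding genes, 2 with quantile normalization and 3 with voom, and the nuclear protein-coding scaling cut the higher count to 24 and took Asah1 to −0.12. The interaction was higher for 33 to 36 genes over the same left-out libraries, and it was higher for 22 and lower for 4 with nuclear protein-coding genes and lower for 2 with quantile normalization. For female minus male in controls the higher count was 3 with assigned reads, 9 with nuclear protein-coding genes, 6 with quantile normalization and 3 with voom, and the lower count 25 with nuclear protein-coding genes. For female minus male in knockouts the higher count was 2 without a filter, 10 with assigned reads, 11 with nuclear protein-coding genes, 10 with quantile normalization and 10 with voom, and 1 to 4 over the fits that left out a library. These rescalings move all genes by construction, and any other cause was not tested. The counts over all genes under the same rescalings stand beside the splits above.

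Single genes changed sign in the controls, female minus male. Those named here passed the threshold as deposited or after the rescaling, and sign changes of genes that passed in neither are not listed. With assigned reads these were Glb1 (0.06), Arsa (0.01), Asah1 (0.02), Gm2a (0.19) and Npc1 (0.01), and with voom Glb1 (0.06), Arsa (0.02), Asah1 (0.02), Gm2a (0.19) and Npc1 (0.01). With nuclear protein-coding genes they were Ctsa (0.03), Tpp1 (0.09), Hexa (0.01), Glb1 (0.18), Gusb (0.23), Galc (0.02), Sgsh (0.28), Ids (0.03), Arsa (0.13), Arsb (0.30), Asah1 (0.15), Smpd1 (0.08), Gm2a (0.32), Npc1 (0.13), Mcoln1 (0.03), Cd63 (0.05), Laptm5 (0.06) and Tfeb (0.07). With quantile normalization they were Ctsa (0.04), Hexa (0.02), Glb1 (0.10), Gusb (0.26), Arsb (0.33), Asah1 (0.17), Gm2a (0.37), Cd63 (0.03) and Laptm5 (0.04). In the knockouts, female minus male, Neu1 reached 0.01 with nuclear protein-coding genes, and Ctsz 0.00 and Gm2a 0.13 with quantile normalization.

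With batch as a replicate block, the paired fit, 37 genes were higher and 0 lower in female knockouts, 0 passed in males, the interaction was higher for 35 (without Tfeb, adjusted p = 0.0638, and Cln3, adjusted p = 0.0512, and with Mcoln1, adjusted p = 0.0352), and the sex splits were 1 higher and 39 lower in controls and 3 and 23 in knockouts. None of the 45 genes passed in males under any of the 24 alternatives run. The lowest depth behind a value was 332 reads, for Sgsh, whose difference in females had an SE of 0.08, while Ctss, among the deepest, had an SE of 0.12.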
